A study of Mus musculus with 18 samples.

Results

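The genes of the IL-10 and TGF-beta axis were examined in bone marrow derived macrophages (BMDMs) of 2 mouse strains. They were Il10, Il10ra, Il10rb, Tgfb1, Tgfbr1, Tgfbr2, Tgfbi and Il4ra, taken by their gene names from the deposited table, and made up 8 of its 20615 genes. All 8 had enough reads to be tested in every comparison. RNA-seq had been done on 18 samples in 6 groups of 3. C57BL/6 (B6) was the control strain, and the model strain, here called SjSS, was C57BL/6.NOD-Aec1Aec2, a B6 background carrying NOD intervals that give a disease like Sjögren's syndrome. In each strain, BMDMs were left untreated (control), given apoptotic cells (ACs) at 5 per BMDM for 2 h and kept for 3 h more after the ACs were washed away, or given the TLR9 ligand CpG at 1 µM for 6 h. The ACs were thymocytes killed with dexamethasone. The study's methods state a longer wait after the wash than the labels do, and the sources used here do not say which strain's thymocytes met which BMDMs. All mice were female and 7 to 12 weeks old, and the marrow cells of both strains had been grown to day 7 in medium with L929 supernatant as a source of M-CSF. AC and CpG samples therefore differed in agent and in time together. The mice of the model strain carry whole NOD intervals, so that no value here can be assigned to a single gene within them.

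IL-10 is a cytokine that macrophages release to restrain their own inflammatory genes and those of their neighbours. It binds IL-10 receptor alpha, its private chain, and then IL-10 receptor beta, which other cytokines of the family share, and signals through JAK1, TYK2 and STAT3. TGF-beta 1 is secreted in a latent form and, once freed, joins TGF-beta receptor 2 to TGF-beta receptor 1, which phosphorylates SMAD proteins. Uptake of apoptotic cells is known for raising both cytokines in macrophages. Tgfbi encodes a secreted matrix protein named for its induction by TGF-beta, and Il4ra encodes the chain shared by the receptors for IL-4 and IL-13, cytokines of the alternatively activated macrophage.

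Totals ran from 30688288 to 57139640 estimated counts a sample, the lowest in control SjSS replicate 2. Levels are given as CPM, a gene's counts set against the total of its library, after scaling by edgeR's TMM method, whose factors were 0.833 to 0.838 in the AC SjSS samples and 1.06 to 1.13 in the controls of both strains. A change passed where the adjusted p of edgeR's quasi-likelihood test was under 0.05 over all 15789 genes tested, and fold changes past 1.3 on the log2 scale, the limit in the study's methods (a legend of the study gives it as a plain fold change), are named as such. All 10 macrophage markers were present in every group, with summed levels of 15925 to 24665 CPM. Of 24 T-lineage markers, 22 were in the table and 13 of these lay under the filter on low counts, with 52 counts in all in control B6, 182 in AC B6, 57 in control SjSS and 90 in AC SjSS. Cd3d, Cd3e, Cd3g and Trac, which define T cells, averaged at most 0.127 CPM in any group. The summed T-lineage level was 72.2 to 88.5 CPM in control B6, 27.8 to 34.6 in AC B6 and 11.4 to 13.5 in CpG B6, and 67.2 to 83.8, 45.1 to 49.9 and 15.7 to 18.6 CPM in SjSS. Cd28 and Cd4 made up most of these sums. Cd28 averaged 70.1, 23.8 and 5.78 CPM in control, AC and CpG B6, and 58.7, 29.0 and 8.05 CPM in SjSS. Most markers, however, had higher means with ACs in both strains, nearly all at low levels. In B6, Cd8a went from 0.00695 to 0.182 CPM, Tcf7 from 0.176 to 0.460 CPM and Rag1 from 0 to 0.163 CPM. Only Cd28, Cd4, Satb1, Cd3e and Cd2 had lower means there. SjSS had Cd4 rise from 10.3 to 14.0 CPM, while Cd28, Satb1, Cd3d, Cd3e, Themis, Dntt and Lef1 had lower means. Summed neutrophil markers stood at 3.65 to 5.26 CPM in control B6 and 11.2 to 13.2 in CpG B6, and at 2.66 to 3.22 and 5.68 to 6.07 CPM in SjSS. S100a8 (3.60 to 9.41 CPM in B6, 2.78 to 4.68 in SjSS) and Camp made up most of that rise. Ltf in B6 and Cxcr2 in SjSS did not rise. Summed dendritic markers stood at 1.45 to 1.74 CPM in control SjSS and 2.80 to 3.75 in AC SjSS, and at 1.17 to 1.69 and 1.20 to 1.44 CPM in B6. Xcr1 made up most of the rise in SjSS (0.279 to 2.13 CPM), where Clec9a (0.536 to 0.263) and Ccr7 (0.349 to 0.232) fell. The part of these cell types in the responses was not tested. In bulk samples a change in the share of cells and a change in RNA per cell cannot be told apart.

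Il10ra and Tgfbr2 lie on the same chromosome, as do Tgfb1 and Il4ra, and each of the other genes lies on a chromosome of its own. In the coordinates of mm10 with the end as the last base of the gene, Il10 spans chr1:131019845-131024974 on the plus strand, Il10ra chr9:45253837-45269149 on the minus strand, Il10rb chr16:91406164-91425834 on the plus strand and Tgfb1 chr7:25687002-25705077 on the plus strand. Tgfbr1 spans chr4:47353222-47414931 on the plus strand, Tgfbr2 chr9:116087698-116175363 on the minus strand, Tgfbi chr13:56609603-56639339 on the plus strand and Il4ra chr7:125552120-125579474 on the plus strand. All are protein coding in GENCODE M21. Of the exon bases of Il10rb, 14.9% are shared with Gm21970 on the same strand, and 9.51% of those of Il4ra with the antisense gene Gm44876. Neither Gm21970 nor Gm44876 has a row in the deposited table. How reads there were assigned cannot be seen, and the values of Il10rb and Il4ra carry that uncertainty.

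RefSeq promoter windows (GRCm38.p6, 250 bases before to 50 after the gene's start) were at hand for 5 of the 8 genes, and are shown for the ligand, the 2 chains of its receptor and the gene named for its induction, because the proportion of the receptor chains was not the same in AC SjSS as in the other groups. Capitals mark matches to a GC box (GGGCGG or CCGCCC) or to the SMAD box (GTCTG or CAGAC), on either strand, and no capital base belonged to more than 1 motif. The windows lie at chr7:25686752-25687051 on the plus strand (Tgfb1), chr4:47352972-47353271 on the plus strand (Tgfbr1), chr9:116175314-116175613 on the minus strand (Tgfbr2) and chr13:56609336-56609635 on the plus strand (Tgfbi, whose RefSeq start lies at −17 from that of the deposited table).
Tgfb1: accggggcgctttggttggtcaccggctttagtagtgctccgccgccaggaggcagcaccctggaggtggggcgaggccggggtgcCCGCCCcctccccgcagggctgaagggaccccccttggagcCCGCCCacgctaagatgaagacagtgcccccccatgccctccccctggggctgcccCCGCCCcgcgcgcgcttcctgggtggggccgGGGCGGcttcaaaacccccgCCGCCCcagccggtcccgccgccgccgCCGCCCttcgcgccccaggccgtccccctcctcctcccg
Tgfbr1: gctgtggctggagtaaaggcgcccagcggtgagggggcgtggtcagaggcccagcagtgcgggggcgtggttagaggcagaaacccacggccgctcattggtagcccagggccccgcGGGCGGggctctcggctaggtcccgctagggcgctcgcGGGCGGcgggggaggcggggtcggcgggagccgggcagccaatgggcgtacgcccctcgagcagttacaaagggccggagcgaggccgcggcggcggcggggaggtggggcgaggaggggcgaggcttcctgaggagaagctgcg
Tgfbr2: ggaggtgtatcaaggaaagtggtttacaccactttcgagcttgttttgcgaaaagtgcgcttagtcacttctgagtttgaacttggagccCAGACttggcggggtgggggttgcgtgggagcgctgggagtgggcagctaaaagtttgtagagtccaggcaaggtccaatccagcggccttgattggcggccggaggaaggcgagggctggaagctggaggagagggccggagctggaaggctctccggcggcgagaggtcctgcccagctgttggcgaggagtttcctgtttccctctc
Tgfbi: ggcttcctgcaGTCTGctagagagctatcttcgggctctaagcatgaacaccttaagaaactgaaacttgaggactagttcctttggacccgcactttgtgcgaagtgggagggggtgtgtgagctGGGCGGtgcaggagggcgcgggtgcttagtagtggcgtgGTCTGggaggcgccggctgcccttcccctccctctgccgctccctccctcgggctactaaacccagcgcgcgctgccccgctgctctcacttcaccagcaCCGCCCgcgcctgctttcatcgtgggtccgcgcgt

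Tgfb1 held 6 GC boxes in a window of 77% G and C, and Tgfbr1 held 2. The window of Tgfbr2 had no GC box and 1 SMAD box, which begins at position −160 from the start, so that the 2 receptor chains differed in both motifs. Tgfbi held 2 of each. A GC box was present in 35.7% of 32851 promoter windows of this length and a SMAD box in 49.6%. These 4 windows had no match to the AP-1 site TGANTCA (7.81% of windows), the STAT site TTCNNNGAA (8.30%), an NF-kB site (4.51%) or the TATA box TATAAA (13.6%). A match is a description of the letters and not a binding site.

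Il10 rose after both treatments in both strains. It was higher in B6 without treatment and with CpG, and higher in SjSS with ACs. Its levels in the 3 control B6 samples were 2.18, 1.75 and 2.56 CPM, in AC B6 6.73, 7.61 and 7.06 CPM, and in CpG B6 73.6, 66.7 and 60.6 CPM. In SjSS they were 0.939, 1.57 and 1.25 CPM in controls, 12.7, 14.5 and 17.4 CPM with ACs, and 47.9, 38.0 and 58.2 CPM with CpG. No 2 of the 6 groups overlapped, and their order from low to high was control SjSS, control B6, AC B6, AC SjSS, CpG SjSS and CpG B6.

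The AC response of Il10 was 1.71 ± 0.18 (log2 fold change ± SE, n = 3 against 3) in B6, a 3.28-fold rise, and 3.61 ± 0.19 in SjSS, a 12.2-fold rise. The difference of these responses was itself tested and was 1.90 ± 0.27, with an adjusted p of 2.2e-05 by edgeR. With CpG it rose by 4.94 ± 0.18 in B6 and 5.30 ± 0.19 in SjSS, 30.8-fold and 39.4-fold, and these responses differed by 0.36 ± 0.27 (edgeR adjusted p = 0.497). Il10 was thus among the genes past 1.3 in all 4 responses.

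Between strains, Il10 was lower in SjSS without treatment, by −0.84 ± 0.23, higher with ACs, by 1.06 ± 0.15, and lower with CpG, by −0.48 ± 0.14 (edgeR adjusted p = 0.0152, 1.34e-05 and 0.0184). The control samples held 51 to 144 counts of Il10 each. Without control B6 replicate 3 or control SjSS replicate 1 the untreated difference no longer passed (edgeR adjusted p = 0.0614 and 0.0806). The difference with CpG did not pass without CpG B6 replicate 1, CpG SjSS replicate 1 or CpG SjSS replicate 2 (edgeR adjusted p = 0.0809, 0.0558 and 0.109), whereas the difference with ACs passed whichever sample was left out.

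**Figure D1:**
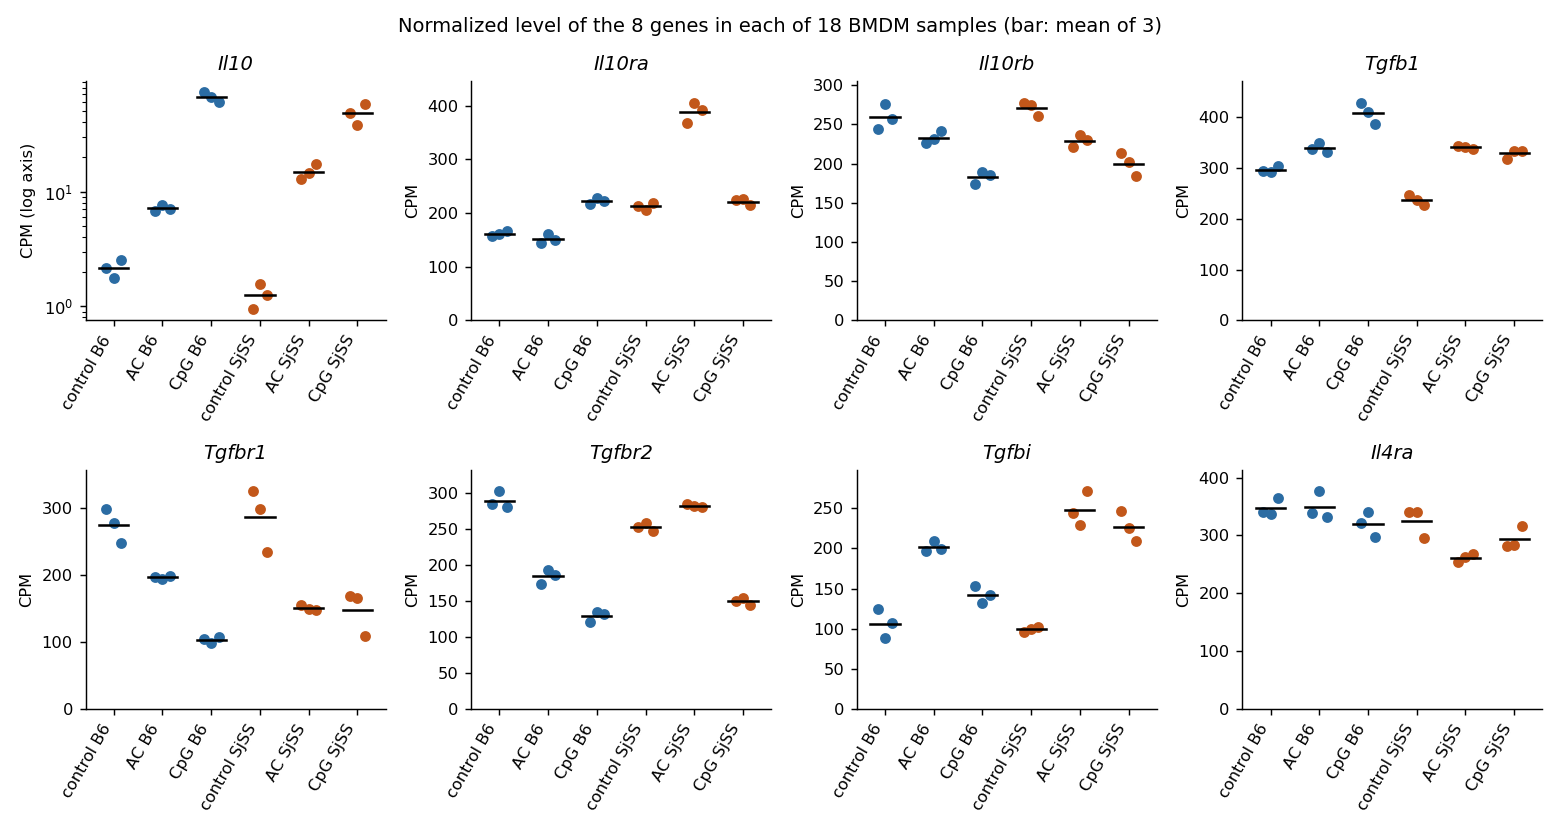
Normalized level (CPM, vertical axis, logarithmic for Il10 and from 0 for the others) of each gene in the 18 samples, by group, B6 in blue and SjSS in orange; points are samples and bars the mean of 3. Il10ra stands highest in the 3 AC SjSS samples, at 368 to 405 CPM, and the 6 groups of Il10 do not overlap.

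Il10ra, the ligand binding chain, rose with ACs in SjSS and with CpG in B6. Its levels were 157, 162 and 166 CPM in control B6, 143, 162 and 150 CPM in AC B6, and 216, 227 and 222 CPM in CpG B6. In SjSS they were 214, 205 and 219 CPM in controls, 368, 405 and 391 CPM with ACs, and 223, 226 and 214 CPM with CpG. The AC SjSS samples lay above all others, AC B6 overlapped control B6, and the SjSS controls, the CpG SjSS samples and the CpG B6 samples stood at about the same height.

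The AC response of Il10ra was 0.87 ± 0.05 in SjSS and −0.09 ± 0.05 in B6 (edgeR adjusted p = 4.78e-11 and 0.189), and the difference of the responses was 0.96 ± 0.08 (adjusted p = 8.8e-09). With CpG the order was turned: 0.46 ± 0.05 in B6, which passed, and 0.06 ± 0.05 in SjSS, which did not (edgeR adjusted p = 0.373), with a difference of −0.40 ± 0.07 (adjusted p = 0.00355). SjSS was higher than B6 by 0.39 ± 0.05 without treatment and by 1.36 ± 0.05 with ACs, the only strain difference of the 8 genes past 1.3, and with CpG the difference was −0.00 ± 0.05 (edgeR adjusted p = 0.976). With library totals alone as the scale the AC response of SjSS was smaller but still passed, and that of B6 was −0.16 and passed as lower (edgeR adjusted p = 0.0198).

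Il10rb, the chain shared with receptors for other cytokines of the family, fell after CpG in both strains. It stood at 244 to 276 CPM in control B6, 227 to 242 in AC B6 and 174 to 189 in CpG B6, and at 260 to 277, 221 to 237 and 184 to 213 CPM in the same conditions of SjSS. The strains overlapped in each condition, and no strain difference of Il10rb passed (sizes up to 0.13 ± 0.06, with CpG). The CpG response was −0.50 ± 0.06 in B6 and −0.44 ± 0.06 in SjSS. The AC response was −0.24 ± 0.06 in SjSS, which passed, and −0.15 ± 0.06 in B6 (edgeR adjusted p = 0.0558), which did not in the full set but passed without control B6 replicate 1, CpG SjSS replicate 1 or CpG SjSS replicate 3 (adjusted p = 0.0303, 0.0473 and 0.0383), and with library totals alone (−0.22, 0.00422). The strain difference with CpG passed without CpG SjSS replicate 3 (edgeR adjusted p = 0.0441, at 0.18). On library totals alone, strain differences of −0.33 with ACs and 0.22 with CpG passed (edgeR adjusted p = 6.31e-05 and 0.00835).

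The levels of the 2 IL-10 receptor chains thus changed relative to each other. Per kilobase of exon, the ratio of Il10ra to Il10rb within a library, which no scaling between libraries can alter, was 0.681 ± 0.037 (SD, n = 3) in control B6, 0.708 ± 0.047 in AC B6 and 1.32 ± 0.03 in CpG B6. In SjSS it was 0.855 ± 0.054 in controls, 1.84 ± 0.03 with ACs and 1.21 ± 0.06 with CpG. The alpha chain exceeded the beta chain per kilobase in all CpG samples and in the AC SjSS samples, and was below it in the others. This ratio and the one of the TGF-beta receptor chains were chosen after the values were seen and carry no test.

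Tgfb1, the ligand, rose in all 4 responses. Its levels were 295, 293 and 303 CPM in control B6, 338, 349 and 332 CPM in AC B6, and 429, 411 and 387 CPM in CpG B6. In SjSS they were 247, 238 and 227 CPM in controls, 345, 343 and 338 CPM with ACs, and 319, 335 and 335 CPM with CpG. Controls of SjSS lay below those of B6, the AC samples of both strains overlapped, and CpG B6 was the highest group.

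The AC response of Tgfb1 was 0.19 ± 0.05 in B6 and 0.53 ± 0.05 in SjSS, and the difference of responses was 0.34 ± 0.07 (edgeR adjusted p = 0.00077). That difference was −0.00 when libraries were scaled by their totals alone (edgeR adjusted p = 0.966). The CpG responses were 0.46 ± 0.05 and 0.47 ± 0.05 and differed by 0.01 ± 0.07 (edgeR adjusted p = 0.938). SjSS was lower than B6 by −0.33 ± 0.05 without treatment and by −0.31 ± 0.05 with CpG, while with ACs the difference was 0.01 ± 0.05 (edgeR adjusted p = 0.879) and turned to −0.29, which passed, with library totals alone. No response of Tgfb1 was past 1.3, and the greatest was a 1.44-fold rise.

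Tgfbr1, the signalling kinase chain, fell in all 4 responses. Its levels were 298, 277 and 247 CPM in control B6, 197, 193 and 198 CPM in AC B6, and 104, 98.4 and 108 CPM in CpG B6. In SjSS they were 324, 298 and 234 CPM in controls, 155, 149 and 148 CPM with ACs, and 169, 165 and 109 CPM with CpG. Replicate 3 was the lowest of its group in control B6 and in all 3 groups of SjSS, and treated samples lay below the controls of their strain without overlap.

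The AC response of Tgfbr1 was −0.48 ± 0.13 in B6 and −0.92 ± 0.13 in SjSS, and the CpG response −1.40 ± 0.13 and −0.95 ± 0.13. The strains had the opposite order in the 2 conditions: SjSS was lower with ACs by −0.38 ± 0.13 and higher with CpG by 0.51 ± 0.13 (edgeR adjusted p = 0.0181 and 0.00776). The first no longer passed without AC SjSS replicate 2 or 3 (adjusted p = 0.0523 and 0.0577 by edgeR), and the second without CpG SjSS replicate 1 (0.0541). The differences of the responses did not pass, at −0.44 ± 0.18 for ACs and 0.45 ± 0.18 for CpG (edgeR adjusted p = 0.0601 and 0.152), and both passed without CpG SjSS replicate 3 (adjusted p = 0.00975 and 0.00721, at −0.44 and 0.63). The AC difference also passed without control B6 replicate 1 or control SjSS replicate 3 (edgeR adjusted p = 0.0472 and 0.0133), and with library totals alone (−0.78, 0.0012). With replicate numbers as a block both differences passed, at −0.42 and 0.44 (edgeR adjusted p = 0.0126 and 0.0377).

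Tgfbr2, the chain that binds the ligand, fell with CpG in both strains and with ACs in B6. Its levels were 284, 302 and 281 CPM in control B6, 174, 192 and 186 CPM in AC B6, and 121, 135 and 132 CPM in CpG B6. In SjSS they were 252, 258 and 247 CPM in controls, 285, 282 and 280 CPM with ACs, and 150, 155 and 145 CPM with CpG. The AC samples of the 2 strains were far apart, those of SjSS above their own controls and those of B6 below theirs.

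In B6 the AC response of Tgfbr2 was −0.65 ± 0.05, a 1.57-fold fall. In SjSS it was 0.16 ± 0.05 (edgeR adjusted p = 0.0125), but this direction depended on the scale, being −0.25 with library totals alone (edgeR adjusted p = 0.000228). The difference of the responses passed on both scales and was 0.81 ± 0.07 (edgeR adjusted p = 6.97e-08). With CpG, Tgfbr2 changed by −1.16 ± 0.05 in B6 and −0.75 ± 0.05 in SjSS, a difference of 0.41 ± 0.07 (edgeR adjusted p = 0.00282). Between strains it was lower in SjSS without treatment by −0.20 ± 0.05, and higher with ACs by 0.62 ± 0.05 and with CpG by 0.21 ± 0.05. The untreated difference did not pass without control B6 replicate 2, nor that with CpG without CpG B6 replicate 1 (edgeR adjusted p = 0.0741 and 0.0515).

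Per kilobase of exon, the ratio of Tgfbr2 to Tgfbr1 within a library was 0.847 ± 0.075 (SD, n = 3) in control B6, 0.750 ± 0.046 in AC B6 and 0.999 ± 0.088 in CpG B6. In SjSS it was 0.717 ± 0.113 in controls, 1.5 ± 0.03 with ACs and 0.837 ± 0.190 with CpG. The AC SjSS samples, at 1.47 to 1.52, did not overlap any other group, the highest other sample being at 1.096. The ligand binding chain thus exceeded the kinase chain per kilobase in all 3 of them, and elsewhere in 1 sample of each CpG group.

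**Figure D2:**
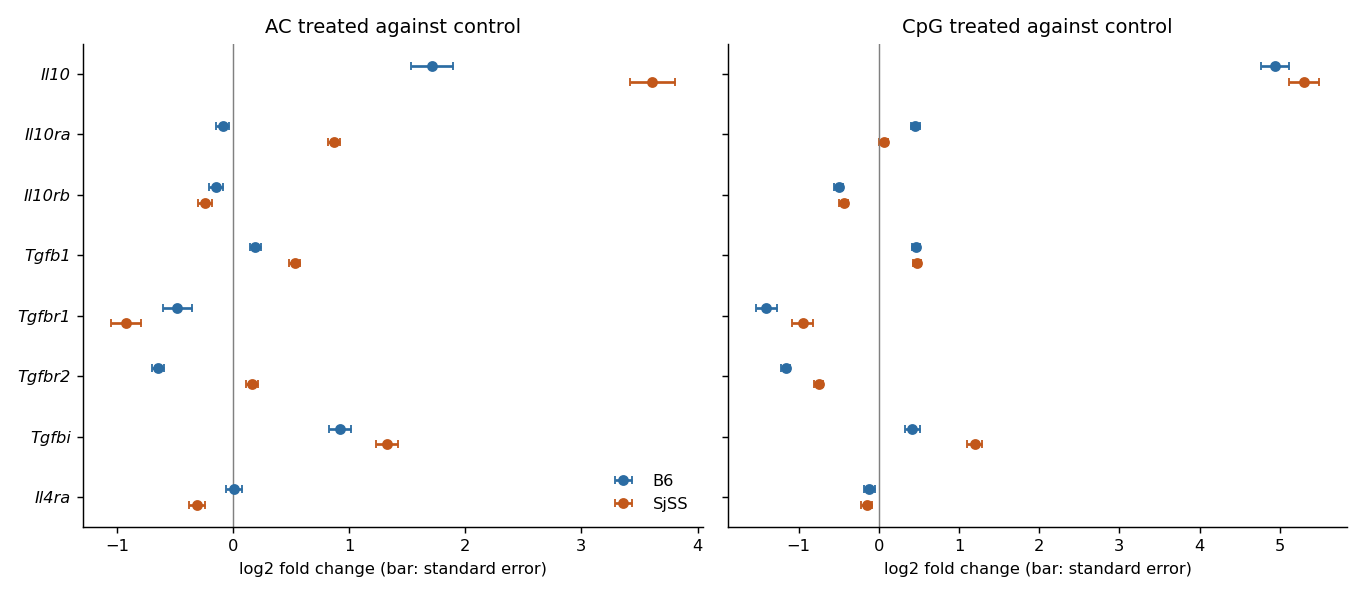
Response of each gene to ACs (left) and CpG (right) as log2 fold change against the untreated controls of the same strain (horizontal axis); points are edgeR estimates from 3 against 3 samples, bars their standard errors, B6 in blue and SjSS in orange. Tgfbr2 with ACs has the 2 strains on opposite sides of 0, at −0.65 and 0.16 under TMM scaling, and the latter turns to −0.25 with library totals alone.

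Tgfbi, the gene named for its induction by TGF-beta, rose in all 4 responses. Its levels were 124, 88.7 and 107 CPM in control B6, 196, 209 and 199 CPM in AC B6, and 154, 131 and 142 CPM in CpG B6. In SjSS they were 95.8, 99.4 and 102 CPM in controls, 244, 229 and 271 CPM with ACs, and 246, 226 and 209 CPM with CpG. Controls of the strains overlapped, and each treated group of SjSS lay above the samples of B6 with the same treatment.

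The AC response of Tgfbi was 0.92 ± 0.10 in B6 and 1.32 ± 0.10 in SjSS, past 1.3 in the latter. The CpG response was 0.42 ± 0.10 in B6 and 1.19 ± 0.10 in SjSS, and the difference between these was 0.78 ± 0.13 (edgeR adjusted p = 0.00203), which passed whichever sample was left out. The difference between the AC responses was less secure, at 0.40 ± 0.13 (edgeR adjusted p = 0.0235). It did not pass without control B6 replicate 1, AC B6 replicate 1, control SjSS replicate 1 or AC SjSS replicate 3 (adjusted p of 0.0814, 0.0503, 0.0506 and 0.0663 by edgeR), and was 0.06 with library totals alone (edgeR adjusted p = 0.734). SjSS was higher than B6 by 0.30 ± 0.09 with ACs, which did not pass without AC SjSS replicate 3 (edgeR adjusted p = 0.0718), and was 0.00 with library totals alone, and by 0.67 ± 0.10 with CpG.

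Matrix is also made by stromal cells, and the summed level of 7 of their markers was higher in SjSS. It was 45.6 to 138 CPM in control B6, 82.0 to 120 in AC B6 and 41.8 to 103 in CpG B6, and 167 to 234, 190 to 238 and 153 to 200 CPM in the same conditions of SjSS, with no overlap between strains in any condition. Col1a1 and Col1a2 made up most of it (36.4 and 48.1 CPM in control B6, 88.6 and 100.3 CPM in control SjSS). Not all markers had that order: Col3a1 was at 13.4 CPM in AC B6 and 10.8 in AC SjSS, Pdgfra at 1.14 in CpG B6 and 1.05 in CpG SjSS, and Lum at 0 in the controls of both strains. The untreated difference of Tgfbi between strains was −0.10 ± 0.10 (edgeR adjusted p = 0.491), and the summed markers did not overlap between strains there. Their part in the strain differences of Tgfbi was not tested.

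Il4ra, the chain that receives IL-4 and IL-13, changed by less in its largest response than each of the other 7 genes did in theirs. Its levels ran from 338 to 365 CPM in control B6, 332 to 376 in AC B6 and 297 to 340 in CpG B6, and from 296 to 341, 254 to 268 and 282 to 316 CPM in the same conditions of SjSS. Only the AC SjSS samples stood apart from all others, at the low end. The AC response was −0.32 ± 0.07 in SjSS (edgeR adjusted p = 0.000688), and in B6 it was 0.01 ± 0.07 (adjusted p = 0.962). The responses differed by −0.32 ± 0.10 (edgeR adjusted p = 0.0147), and SjSS was lower than B6 with ACs by −0.42 ± 0.07. The CpG responses were −0.12 ± 0.07 in B6 and −0.15 ± 0.07 in SjSS and did not pass (edgeR adjusted p = 0.144 and 0.0788), the latter passing without control SjSS replicate 3 or CpG SjSS replicate 3 (adjusted p = 0.0161 and 0.0305). Both CpG responses passed with library totals alone, at −0.30 and −0.28 (edgeR adjusted p = 0.000385 and 0.00104).

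Counted over the 8 genes, 5 passed in the AC response of B6 (3 higher, 2 lower) where 38.3% of all genes tested did, and 8 in that of SjSS (5 higher, 3 lower), against 58.0%. In the CpG responses 7 passed in B6 and 6 in SjSS, against 57.9% and 54.2% of all genes. Those also past 1.3 numbered 1 in the AC response of B6 (Il10), 2 in that of SjSS (Il10 and Tgfbi), 2 in the CpG response of B6 (Il10 and Tgfbr1) and 1 in that of SjSS (Il10), where 4.47%, 12.9%, 12.7% and 9.26% of all genes were. Without treatment 4 differed between strains, with ACs 6 and with CpG 5, against 19.6%, 49.4% and 19.7% of all genes, and only Il10ra with ACs was past 1.3, as were 8.93% of all genes there. Without CpG B6 replicate 1, or without CpG SjSS replicate 1, the last count was 3. The AC response differed between strains for 6 genes (5 more positive in SjSS) and the CpG response for 3, where 37.9% and 5.85% of all genes did. Of all genes, the 923 behind that last share were 554 without CpG SjSS replicate 1, and the 3096 that differed between untreated strains were 1994 without control B6 replicate 2 and 2050 without control SjSS replicate 3. Scaled by library totals alone, the split of higher and lower genes was 3 and 4 in the AC response of B6, 4 and 4 in that of SjSS, 4 and 4 and 3 and 4 in the CpG responses of B6 and SjSS, 3 and 4 between strains with ACs, 4 and 2 with CpG, and 3 and 3 for the difference of the AC responses. The counts describe 8 chosen genes and are not read as particular to the axis.

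**Figure D3:**
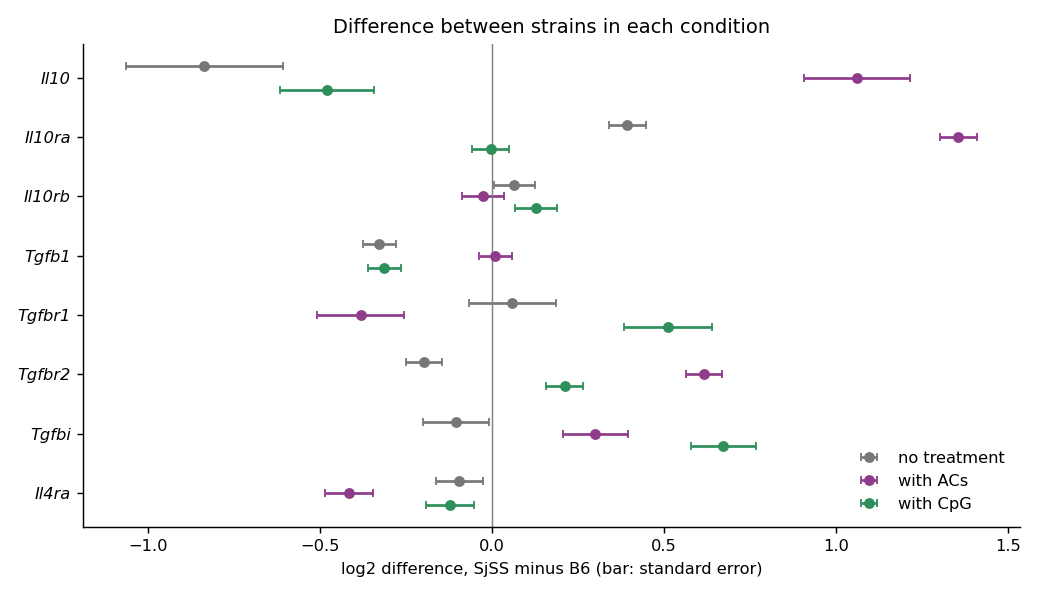
Difference between strains (log2, SjSS minus B6, horizontal axis) of each gene without treatment, with ACs and with CpG; points are edgeR estimates from 3 against 3 samples and bars their standard errors. Il10, Tgfbr1, Tgfbr2 and Tgfbi have conditions on opposite sides of 0. Tgfb1 with ACs (0.01) and Il10ra with CpG (−0.003) lie almost at 0, and Il10rb lies near 0 in all 3.

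Set against each other within a strain, the 2 treatments differed for 7 of the 8 genes in B6 (46.1% of all genes tested) and for 4 in SjSS (52.2%), 3 higher and 1 lower with ACs, or 2 and 3 with library totals alone. Il10 was lower with ACs than with CpG in both strains, by −3.23 ± 0.15 in B6 and −1.69 ± 0.15 in SjSS. Il10ra was lower with ACs in B6 (−0.55 ± 0.05) and higher with ACs in SjSS (0.81 ± 0.05). Tgfbr1 was higher with ACs in B6 by 0.92 ± 0.13, while in SjSS the difference was 0.03 ± 0.13 (edgeR adjusted p = 0.874) and turned to −0.26 with library totals alone, where it did not pass either. Tgfbr2 was higher with ACs in both strains, by 0.51 ± 0.05 and 0.91 ± 0.05. Il10rb was higher with ACs by 0.35 ± 0.06 in B6 and 0.20 ± 0.06 in SjSS, the latter not passing without CpG SjSS replicate 3 (edgeR adjusted p = 0.0693) and −0.09 with library totals alone. Tgfb1 was lower with ACs by −0.27 ± 0.05 and Tgfbi higher by 0.50 ± 0.10 in B6. In SjSS their differences were 0.05 ± 0.05 and 0.13 ± 0.09 and did not pass (edgeR adjusted p = 0.381 and 0.27), and with library totals alone they were −0.23, which passed as lower, and −0.16, which did not pass. Il4ra did not pass in B6 (0.13 ± 0.07) or SjSS (−0.17 ± 0.07, edgeR adjusted p = 0.0524), and passed in both with library totals alone (0.24 and −0.45). In SjSS it also passed without AC B6 replicate 2, CpG B6 replicate 2, control SjSS replicate 3 or CpG SjSS replicate 1 (edgeR adjusted p = 0.0461, 0.0478, 0.0327 and 0.0489).

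The scale mattered most for the AC SjSS samples. Going from TMM to library totals alone moved the genes of the axis by about −0.41 (log2) in the AC response of SjSS. The shift was about −0.07 in that of B6, −0.34 in the difference of the 2 AC responses and −0.30 in the strain difference with ACs. In the responses to CpG the shift was −0.18 in B6 and −0.13 in SjSS. The AC responses of Il10 and Il10ra in SjSS, and their differences from those of B6, passed on both scales. The differences of the AC responses of Tgfb1 and Tgfbi between strains passed with TMM and with DESeq2 size factors, and not with library totals alone. Which scale fits these samples was not tested.

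**Figure D4:**
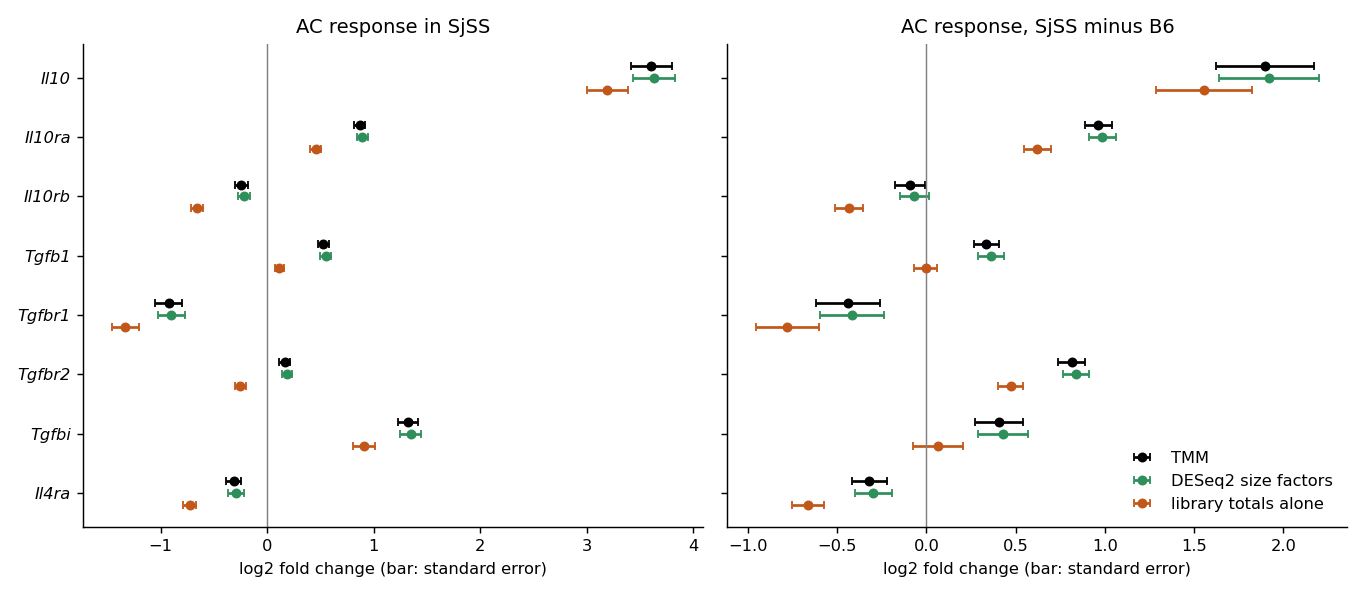
AC response in SjSS (left) and its difference from that in B6 (right) for each gene under 3 ways of scaling the libraries, as log2 values (horizontal axis) with standard errors as bars. TMM and DESeq2 size factors nearly coincide. Library totals alone move every gene lower, with a shift of about −0.41 on the left and −0.34 on the right.

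Levels between genes were compared per kilobase of exon. In control B6 the order from high to low was Il10rb (68.0 CPM per kilobase), Tgfb1 (59.0), Il4ra (57.9), Il10ra (46.2), Tgfbr1 (41.9), Tgfbr2 (35.3), Tgfbi (28.2) and Il10 (1.65). In AC SjSS, Il10ra stood first at 111 CPM per kilobase and Tgfbr1, at 23.0, was below all but Il10, at 11.4. In CpG B6, Il10 reached 51.1 CPM per kilobase, above Il10rb at 48.0 and below Il10ra at 63.4.

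Across the 18 samples, the genes whose log2 levels were among the most like that of Il10 were Fpr1, Lmo4 and Shisa3 (Pearson r of 0.995, 0.994 and 0.994), and for Il10ra they were Rnaset2b, Rnaset2a and Otud1 (0.969, 0.963 and 0.958). For Tgfbr2 they were Prcp, Cyp27a1 and Esr1 (0.983, 0.981 and 0.980), for Tgfbr1 Gcnt1 and Gpr157 (0.975 and 0.970), and for Tgfbi Pde10a, Rnf144a and Fbrsl1 (0.947, 0.932 and 0.927). For Il10rb they were Cd84, Rell1 and Acox3 (0.974, 0.971 and 0.971), for Tgfb1 Msr1 and Ly9 (0.958 and 0.958), and for Il4ra Cyth4, Rhbdd1 and Gm13245 (0.940, 0.885 and 0.885). These correlations are over samples that share 6 groups, so they describe a common order of groups. Among the 8 genes themselves, Il10 and Il10rb were the most opposed (r = −0.95 over 18 samples).

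Over all genes tested, 28.6% rose and 29.4% fell with ACs in SjSS and 20.0% and 18.3% in B6, and with CpG 28.1% rose and 29.8% fell in B6 and 27.8% and 26.4% in SjSS. On library totals alone these shares were 13.2% and 56.6% with ACs in SjSS, 14.9% and 23.5% with ACs in B6, 20.0% and 41.6% with CpG in B6, and 20.6% and 34.9% with CpG in SjSS. The counts of each list are to be read against these shares. Beyond the 8 genes, the chain of IL-10 receptor signalling and its limits was described by a list of 10 genes, all tested. With ACs 9 of them rose in SjSS and 3 rose and 2 fell in B6, with medians of 0.53 and 0.01 (log2), beside −0.02 and 0.00 over all genes. Socs1 and Socs3, which shut off JAK and STAT signalling, led it, at 7.31 ± 0.18 and 5.05 ± 0.16 in SjSS, and 1.95 and 1.63 in B6. Tyk2, the kinase bound to Il10rb, rose by 0.75 ± 0.05 in SjSS. Stat3, the main transducer of IL-10, rose by 0.63 in SjSS and fell in B6 (−0.27). With CpG 7 rose in B6, and in SjSS 6 rose and 2 fell. Socs3 rose by 5.82 in B6 and 5.87 in SjSS. Under library totals alone the split was 5 higher and 3 lower in the AC response of SjSS, 3 and 3 in that of B6, 6 and 3 with CpG in B6, and 5 and 3 with CpG in SjSS.

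Of 13 genes known to be induced by IL-10 in macrophages, 10 rose and 2 fell with ACs in SjSS (median 1.56), and 7 rose and 2 fell in B6 (median 0.57). After Socs3, the largest changes in SjSS were those of Gpr84, a receptor for fatty acids (4.47 ± 0.13), Tnip3, an inhibitor of NF-kB (2.63 ± 0.10), and Hmox1, which breaks down haem (2.25 ± 0.10). Hmox1 rose by about as much in B6 (2.43), and the difference of −0.17 did not pass. Ptger4, a prostaglandin receptor, fell with ACs in both strains (−0.71 in SjSS and −0.29 in B6), and the scavenger receptor Cd163 fell in B6 (−1.22). With CpG 10 of the 13 rose in each strain.

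Among 13 regulators of Il10 transcription, 8 rose and 4 fell with ACs in SjSS, and 4 rose and 5 fell in B6. The split in SjSS with library totals alone was 6 higher and 6 lower. The NF-kB subunits Nfkb1 and Rel rose by 2.50 ± 0.07 and 1.63 ± 0.11 in SjSS, and their responses exceeded those of B6 by 1.34 ± 0.10 and 1.45 ± 0.15. Irf4 fell by −1.35 ± 0.30, and the nuclear receptor Nr4a1 rose by 1.25 ± 0.19. The level of Irf4 was low, with means from 1.20 to 0.472 CPM in SjSS and from 0.983 to 0.506 CPM in B6. Nr4a1 was higher with ACs in B6 as well, at a mean of 18.6 CPM against 11.5 CPM in controls. Maf, a known activator of Il10, fell with ACs (−0.76 in SjSS and −0.74 in B6) and rose with CpG (0.44 and 0.46). Bhlhe40, a known repressor of Il10, fell in all 4 responses, most with CpG in B6 (−3.76).

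Of the other IL-10 family ligands and receptors, 1 of 11 was tested, Il20rb, a chain of receptors for related cytokines, which rose by 1.16 ± 0.18 with ACs in SjSS. Its AC response in B6 was −0.12 and did not pass. Of 11 genes that neighbour Il10 on chromosome 1, 6 were tested, of which 3 rose and 1 fell with ACs in each strain (3 and 2 in SjSS with library totals alone). Mapkapk2, a kinase that stabilizes cytokine mRNAs, rose by 2.17 ± 0.06 and Ikbke, a kinase of innate signalling, by 1.92 ± 0.06 with ACs in SjSS, Srgap2 rose by 0.73 ± 0.07, and Rassf5 fell by −1.16 ± 0.06. Their AC responses in SjSS exceeded those in B6 by 1.35 ± 0.09 for Mapkapk2 and 0.69 ± 0.09 for Ikbke. Rassf5 was lower with ACs in B6 as well, at a mean of 22.7 CPM against 49.4 CPM in controls.

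**Figure D5:**
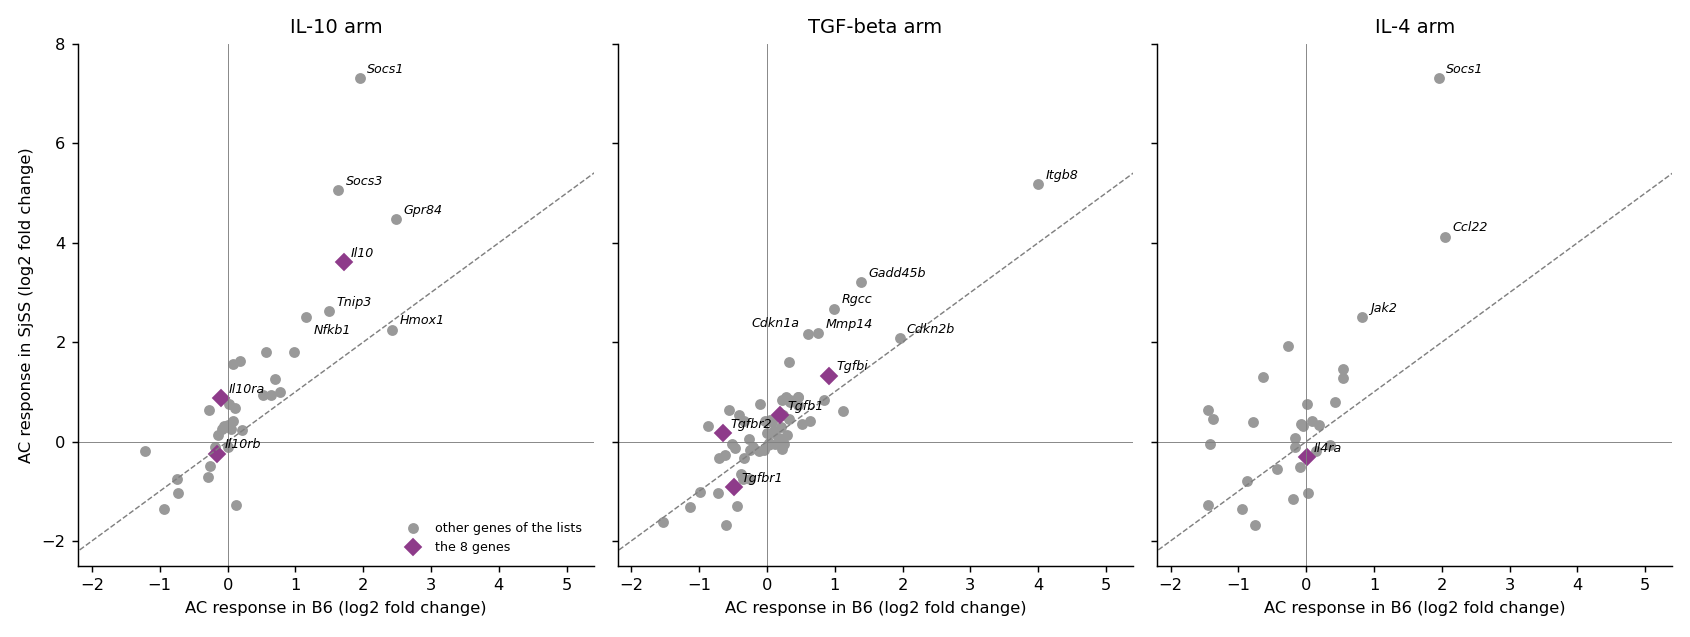
AC response in B6 (horizontal axis) and in SjSS (vertical axis), both as log2 fold change, of genes in the lists around IL-10, TGF-beta and IL-4; grey points are listed genes, purple diamonds the 8 genes, and the dashed line marks equal responses. Socs1 lies farthest above the line, at 1.95 in B6 and 7.31 in SjSS, the positions of Itgb8 and Ccl22 rest on controls at 0.115 CPM or less, and the strains have separate controls.

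The TGF-beta arm was described by 3 lists. Of 17 tested genes for ligands, latency and activation, 6 rose and 2 fell with ACs in SjSS, and 3 rose and 7 fell in B6. Itgb8, an integrin chain that frees latent TGF-beta, rose in both strains from controls near 0, from a mean of 0.115 to 4.38 CPM in SjSS and from 0.044 to 0.718 CPM in B6, so no fold is given. The protease Mmp14 rose by 2.18 ± 0.07 and Tgfb2, another ligand, by 0.89 ± 0.26 in SjSS, where Itgb5 fell by −1.32 ± 0.06. Itgb5 was lower with ACs in B6 as well, at a mean of 258 CPM against 568 CPM in controls. The AC response of Mmp14 and that of the gelatinase Mmp9 exceeded those of B6 by 1.42 ± 0.09 and 1.20 ± 0.19. Furin, which cleaves the TGF-beta precursor, rose in SjSS (0.75) and was −0.10 in B6. With CpG 4 rose and 9 fell in B6, and 3 rose and 9 fell in SjSS. With library totals alone 3 passed as higher and 8 as lower in the AC response of SjSS, and 2 as higher and 9 as lower in that of B6.

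Of 26 receptors, SMADs and inhibitors, 10 rose and 3 fell with ACs in SjSS, and 6 rose and 6 fell in B6. In SjSS the SMAD corepressor Ski fell by −1.29 ± 0.07 and the inhibitory Smad7 by −1.02 ± 0.14, while the ubiquitin ligase Smurf1 rose by 0.91 ± 0.06 and the corepressor Skil by 0.90 ± 0.09. The co-receptor Eng differed most between the AC responses of the strains, by 0.95 ± 0.16 (0.54 in SjSS and −0.41 in B6), and Ski differed by −0.85 ± 0.10. On library totals alone the split in SjSS was 4 higher and 15 lower. Smad2, Smad3 and Smad4 changed by 0.45, 0.07 and −0.03 with ACs in SjSS, and the first of these passed.

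Of 21 genes known to be induced by TGF-beta, 10 rose and 7 fell with ACs in SjSS, and 8 rose and 8 fell in B6 (medians 0.35 and 0.20). The risers in SjSS were led by Gadd45b (3.20 ± 0.08), Rgcc (2.67 ± 0.34), Cdkn1a (2.16 ± 0.12) and Cdkn2b (2.08 ± 0.26), of which the last pair encode inhibitors of the cell cycle. Cdkn2b went from a mean of 0.820 to 3.45 CPM in SjSS and by about as much in B6, from 0.848 to 3.33 CPM. The AC responses of Gadd45b and Rgcc exceeded those of B6 by 1.82 ± 0.10 and 1.68 ± 0.50, Rgcc from controls at 0.392 CPM in B6 and 0.703 in SjSS. Id1, Id3, Smad7 and Cx3cr1 fell with ACs in both strains (Id3 by −1.69 in SjSS and −0.60 in B6). With CpG 4 rose and 13 fell in B6 (median −0.79), and 5 rose and 12 fell in SjSS (median −0.64), Pmepa1 by −2.77 and −1.80. With library totals alone 6 rose and 8 fell in the AC response of SjSS. The summed level of the stromal markers, though not each marker, was higher in SjSS in every condition, and their part in these lists was not tested.

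Around Il4ra, 11 genes of IL-4 and IL-13 receptor signalling were tested, of which 8 rose and 2 fell with ACs in SjSS, and 5 rose and 2 fell in B6. These were 5 and 4 with library totals alone in SjSS, and 3 and 4 in B6. Besides Socs1, Jak2 rose by 2.50 ± 0.10 and Il2rg, the chain that pairs with Il4ra for IL-4, by 1.46 ± 0.07 in SjSS, and the adaptor Irs2 fell by −1.69 ± 0.13. Il13ra1, the chain that pairs with Il4ra for IL-13, had AC responses of 1.31 in SjSS and −0.64 in B6, which differed by 1.94 ± 0.16. Of 18 tested genes known to be induced by IL-4 in macrophages, 5 rose and 5 fell with ACs in SjSS, and 1 rose and 6 fell in B6. In SjSS 3 rose and 8 fell with library totals alone. Ccl22, a chemokine, rose in both strains from controls near 0, from a mean of 0.105 to 1.96 CPM in SjSS and from 0.072 to 0.308 CPM in B6. Cish rose by 1.92 ± 0.20 and Klf4 by 1.27 ± 0.25 in SjSS, and the response of Cish exceeded that of B6 by 2.19 ± 0.28. Ccl24, at under 1 CPM in every group, fell in B6 (−1.45 ± 0.52) and was 0.63 ± 0.52 in SjSS, which did not pass, and the difference of 2.08 ± 0.74 did not pass with library totals alone (edgeR adjusted p = 0.0583). The mannose receptor Mrc1 fell in B6 with ACs (−1.42) and was −0.06 in SjSS, and Arg1 fell in SjSS (−1.15).

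The ACs had been killed with dexamethasone, a glucocorticoid, so 12 genes induced by glucocorticoids were counted. With ACs 4 rose and 4 fell in SjSS (median −0.08), and 3 rose and 3 fell in B6 (median 0.08). The splits were 4 and 7, and 2 and 3, with library totals alone. Fkbp5 was at 0.09 and 0.06 and did not pass, and Tsc22d3 fell in SjSS (−1.24) and rose in B6 (0.26). The part of the dexamethasone in the AC responses was not tested.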

How the data were processed

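Per the study's methods, reads were mapped by STAR to the mm10 genome and assigned to genes in Partek, and what the authors deposited are estimated counts per gene, not normalized, of which 41.1% were not whole. They were rounded here to whole numbers. The submitters' notes also name DESeq2 3.13. Samples were grouped by their labels. In R 4.3.3, edgeR 4.0.16 (limma 3.58.1) kept 15789 of 20615 genes with filterByExpr, scaled libraries by TMM and fitted 1 quasi-likelihood model of the 6 group means to all 18 samples. The fit was tested on simulated counts with a small share of genes changed, up or down at random, in AC SjSS alone. That setting does not test the choice of scale. Within each of 11 comparisons, Benjamini-Hochberg adjustment ran over all genes tested, and SE is the log2 fold change divided by the square root of F. For correlations, log2 CPM was taken at a prior count of 2. Alternatives were DESeq2 1.42.0 (its test and its size factors), library totals alone, no filter, at least 10 counts in 3 samples, the compared groups only, a replicate block, and leaving out each sample.

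The study states 3 mice per strain, and no source used here says whether a shared replicate number marks a shared mouse. Correlations of deviations from group means over genes were over 0.1 for all 3 numbers only between control and CpG in B6 (0.260, 0.264 and 0.137), so there the numbers were taken to pair the samples by that rule. The main fit had no block, so the values given for the CpG response of B6 do not use that pairing. With the block no call in that response changed. P values measure the spread between these samples, and within a strain several treatments may share a mouse. Whether the quantification used strand is not given in the sources used here.

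The 8 genes and the lists were chosen with earlier results of these data known. Named genes were the 8 in every comparison, from each list at least the up to 4 with the largest change among those passing in the AC response of SjSS and the up to 2 largest in the difference of AC responses, and for each of the 8 the 3 most correlated genes. Some genes that this rule names are not reported here. Coordinates are those of the deposited table with its stop less 1, since 95.2% of 17559 genes with the same start in GENCODE M21 had a stop 1 base past the annotated end. CPM values carry counting error as well as the spread between samples. Figures were drawn with matplotlib 3.10.9 in Python 3.11.15.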

Additional observations from a re-analysis of the deposited data

Results flagged for a closer look

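These responses differed between the strains by edgeR's interaction test, at an adjusted p under 0.05. Values are the response in SjSS minus that in B6 on the log2 scale.

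Of the 8 genes, the AC response differed by 1.90 for Il10, 0.96 for Il10ra, 0.34 for Tgfb1, 0.81 for Tgfbr2, 0.40 for Tgfbi and −0.32 for Il4ra. Those of Tgfb1 and Tgfbi did not pass with library totals alone (−0.00402 and 0.0645, adjusted p = 0.966 and 0.734 by edgeR), and that of Tgfbi did not pass in 4 of the fits that left out a sample. The CpG response differed by −0.40 for Il10ra, 0.41 for Tgfbr2 and 0.78 for Tgfbi.

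Of the listed genes named above, those around IL-10 differed in AC response by 5.35 (Socs1), 3.42 (Socs3), 1.98 (Gpr84), 1.45 (Rel), 1.34 (Nfkb1), 1.29 (Il20rb), 1.35 (Mapkapk2) and 0.69 (Ikbke). Those around TGF-beta differed by 1.42 (Mmp14), 1.20 (Mmp9), 0.95 (Eng), −0.85 (Ski), 1.82 (Gadd45b) and 1.68 (Rgcc). Those around IL-4 differed by 1.94 (Il13ra1), 2.19 (Cish) and 2.08 (Ccl24, which did not pass with library totals alone).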

How the results depend on the processing

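Each of 88 values, the 8 genes in 11 comparisons, was recomputed. Direction and side of the threshold held for 85 with the DESeq2 test, 86 with DESeq2 size factors, 84 with the compared groups only, 87 with no filter, 88 with the stricter filter, 85 with the replicate block and 65 with library totals alone.

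Library totals alone turned the AC response of Tgfbr2 in SjSS to −0.25 and of Il4ra in B6 to −0.0667, the CpG response of Il10ra in SjSS to −0.0699, the strain difference of Tgfb1 with ACs to −0.29 and of Il10ra with CpG to 0.0904, the interactions of Tgfb1 with ACs to −0.00402 and of Il4ra with CpG to 0.0268, and ACs against CpG in SjSS to −0.0879 (Il10rb), −0.23 (Tgfb1), −0.16 (Tgfbi) and −0.26 (Tgfbr1). DESeq2 size factors and the DESeq2 test turned the strain difference of Il10rb with ACs (0.000133 and 0.00114) and the CpG interaction of Tgfb1 (−0.0121 and −0.0117), and no filter turned the AC response of Il4ra in B6 (−0.00239). Apart from Tgfbr2 in SjSS and Tgfb1 with ACs on library totals, and Tgfb1 in ACs against CpG there, none of the turned values passed. With the compared groups only, the strain differences of Il10 without treatment and of Tgfbr2 with CpG no longer passed (adjusted p = 0.0535 and 0.0527), and the AC interaction of Tgfbr1 and ACs against CpG for Il4ra in SjSS did (0.0179 and 0.0374). The cause was not tested.

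Leaving out 1 sample turned these values, given by their ranges: the AC response of Il4ra in B6 (−0.0510 to 0.0412), the strain differences of Tgfbi (−0.219 to 0.0213) and Tgfbr1 (−0.0424 to 0.184) without treatment, of Il10rb (−0.0453 to 0.00684) and Tgfb1 (−0.00593 to 0.0300) with ACs and of Il10ra with CpG (−0.0255 to 0.0195), the CpG interactions of Tgfb1 (−0.0461 to 0.05001) and Il4ra (−0.0994 to 0.0198), and Tgfbr1 in ACs against CpG in SjSS (−0.150 to 0.135). None of these passed in the full set. The count of the 8 genes that differed between strains with CpG ran from 3 to 6. Of all genes, the 923 in the CpG interaction were 544 with the compared groups only and 1451 with the replicate block.

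Replicate numbers were also used as a block. Of 18 pairs of groups and numbers within a strain, 9 correlated over 0.1 (0.0198 to 0.264), and 16 correlated best with their own number, a hint from the data and not from the design. With the block, 3 more values passed: Il10rb in the AC response of B6 (−0.15, adjusted p = 0.0307), and Tgfbr1 in the interactions with ACs (−0.42, 0.0126) and CpG (0.44, 0.0377). It ended no call, and changed none in the CpG response of B6.

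At 51 to 144 counts a sample, Il10 in the controls was the least precise of the 8 genes, and its strain difference without treatment rested on single samples. So did its strain difference with CpG, though the CpG samples held 1540 to 3653 counts of Il10.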
